A study of Oryza sativa with 18 samples.

Results

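The short arms of rice chromosomes 4 and 10 are the subject of these results, as they appear in one list of accessible chromatin regions made from leaves. An open region was counted to a short arm when its midpoint lay below 7.7 Mb on chromosome 4 or below 6.2 Mb on chromosome 10, and to the long arm when it lay above 11.7 Mb or 10.2 Mb. These edges leave out 4 Mb around each centromere, and the file itself marks no arms, centromeres or genome build. By this rule 516 of the 29978 listed regions belonged to the short arms, 235 on chromosome 4 and 281 on chromosome 10. The long arms held 2003 and 1161 regions, and 121 and 110 regions fell into the excluded stretches.

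The list comes from ATAC-seq, in which a transposase cuts and tags DNA that is free of nucleosomes. The material was the second leaf of hydroponically grown Oryza sativa plants of the variety Azucena, 14 days old, all kept at 30 °C until treated. There were 18 libraries in 9 groups of 2: Control at 0.5, 2 and 4 h, Heat at 40 °C for 0.5, 2 and 4 h, Heat recovery (2 h at 40 °C, then 2 h back at 30 °C), Dehydration (roots in air for 2 h) and Dehydration recovery (1.5 h in air, then 2 h back in liquid), with both recovery groups labelled as the 4 h time point. The list pools all of them and holds no value for any library, so a change of the short arms with treatment was not analysed, the depth is unknown and no spread between plants exists. For this reason no p-value is given. Spreads are standard deviations over 1 Mb bins, and intervals are exact 95% binomial intervals that cover counting error only. Regions of one list are not independent samples.

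Heterochromatin is the compact, mostly silent form of chromatin, rich in repeated sequence and poor in active genes. In rice it surrounds the centromeres, and in cytology the short arms of chromosomes 4 and 10 stain as heterochromatic over most of their length, while the ends of most other arms do not. Accessible regions usually mark promoters, enhancers and other regulatory DNA, where transcription factors displace nucleosomes. The list holds no mark of heterochromatin, so the name rests on cytology and only the openness of the arms was measured.

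Both short arms were poor in open regions. Chromosome 4 had 30.5 regions per Mb on its short arm and 84.2 on its long arm, a ratio of 0.36 (interval 0.32 to 0.42). Chromosome 10 had 45.3 and 89.3 per Mb, a ratio of 0.51 (interval 0.44 to 0.58). Chromosomes 1 to 12 together had 80.01 per Mb. The 2 arms made up 3.73% of the chromosomes by length and held 1.73% of their regions. On chromosome 4 the short arm was 21.7% of the length up to the last region and held 9.96% of the regions. On chromosome 10 it was 26.7% of the length with 18.1% of the regions.

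Less of the sequence was open by base pairs as well. Open regions covered 51.5 kb of the short arm of chromosome 4, or 0.669% of it, against 2.27% of the long arm, a ratio of 0.29. On chromosome 10 they covered 66.7 kb, or 1.08%, against 2.24%, a ratio of 0.48. On chromosome 4 the ratio in base pairs lay below the interval of the ratio in regions, because the regions there were also narrower.

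The sparseness was not even along the short arm of chromosome 4. In 1 Mb bins counted outward from the edge of the excluded stretch, the short arm of chromosome 4 held 30, 34, 49, 28, 8, 16 and 26 regions. Its fullest bin ran from chr4:4700001-5700000 and its emptiest, with 8 regions, from chr4:2700001-3700000. The remaining 0.7 Mb at the end of the chromosome held 44 regions, more than 6 of the 7 whole bins in a shorter stretch. Openness was thus lowest in the outer middle of the arm and higher again at the chromosome end. The mean was 27.3 per bin ± 13.1 (SD, n = 7 bins).

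The short arm of chromosome 10 was more even. Its bins held 49, 48, 45, 50, 34 and 40 regions, with the fullest at chr10:2200001-3200000 and the emptiest at chr10:1200001-2200000. The mean was 44.3 per bin ± 6.22 (SD, n = 6 bins), and the last 0.2 Mb held 15 regions. Its emptiest bin, with 34 regions, equalled the second-fullest of the short arm of chromosome 4.

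**Figure D1:**
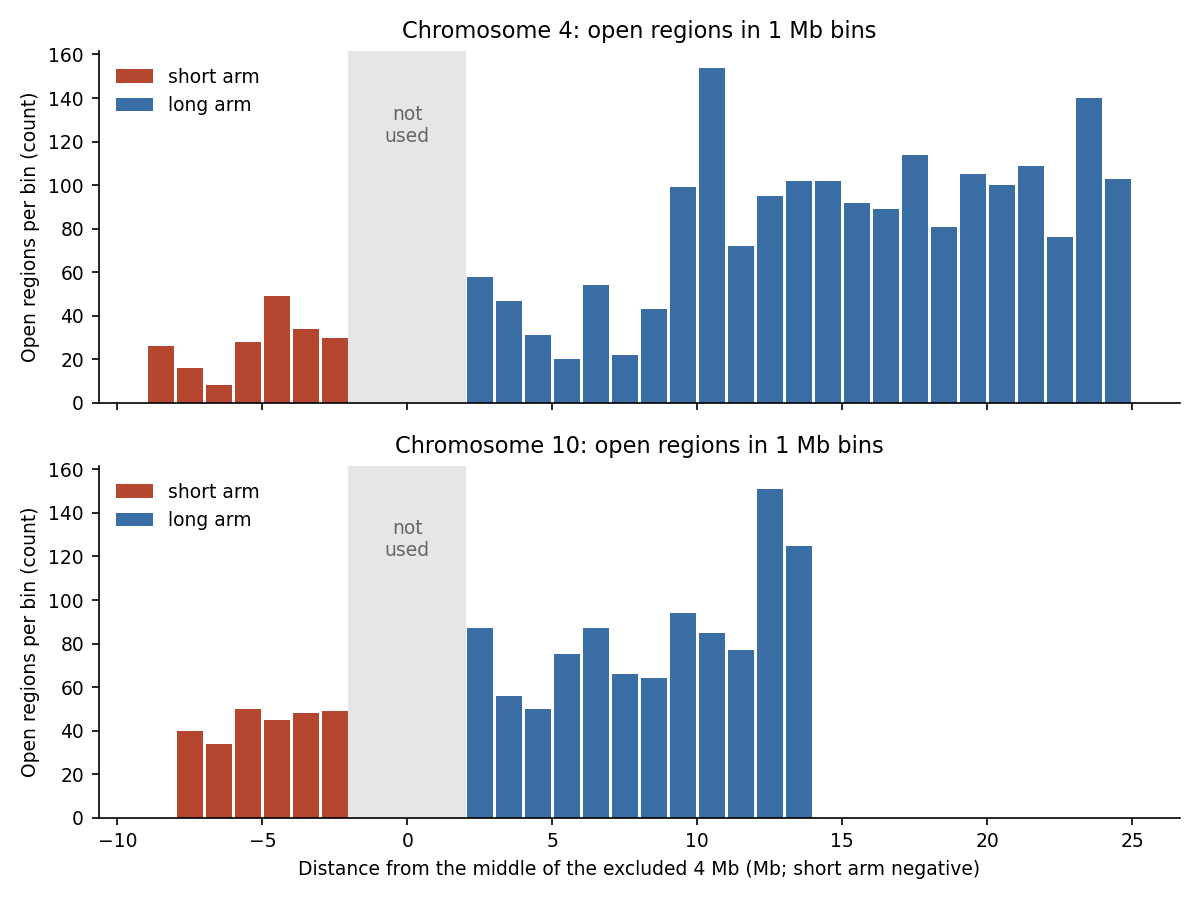
Open regions in whole 1 Mb bins (bars, count) against the distance in Mb from the middle of the excluded 4 Mb (grey), for the short arm (red) and the long arm (blue) of each chromosome; incomplete bins at the chromosome ends are not drawn. The red bars run from 8 to 49 on chromosome 4 and from 34 to 50 on chromosome 10, and the first 7 blue bars of chromosome 4 run from 20 to 58.

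Much of the contrast on chromosome 4 came from the far part of the long arm. The long arm was therefore also compared over the stretch of the same length and the same distance from the centromere, which ends at 19.4 Mb on chromosome 4 and at 16.4 Mb on chromosome 10. That stretch had 44.5 regions per Mb on chromosome 4, against 103.1 in the rest of the long arm. The ratio of short arm to matched stretch was 0.69, nearer to 1 than the 0.36 against the whole long arm. In paired bins at equal distance the short arm had fewer regions in 5 of 7 pairs and more in 2. The first 7 bins of the long arm held 39.3 regions ± 15.2 (SD) and those of the short arm 27.3 ± 13.1. The difference of the means was smaller than either spread. These spreads describe variation between bins along an arm and not the error of a mean.

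The short arm of chromosome 10 lay below the long arm in every pair of 1 Mb bins at matched distance. The matched stretch had 70.0 regions per Mb and the ratio was 0.65, and the short arm had fewer regions in 6 of 6 pairs of bins. The short-arm bins, 34 to 50, touched those of the matched stretch, 50 to 87, at the single value of 50. Of the 434 regions in the matched stretch, 43 lay within chr10:10800001-10900000. They belong to the bin chr10:10200001-11200000, which held 87 regions against 49 in its short-arm pair. With these 43 left out that bin would no longer exceed its pair, so the order of that pair depends on this 100 kb. Without that 100 kb, a choice made after the values were seen, the stretch had 64.1 per Mb and the ratio was 0.71.

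Equal lengths were then taken from the low-coordinate end of every other chromosome. Over the first 7.7 Mb, chromosome 4 had fewer regions per Mb than all 10 chromosomes other than 4 and 10, which ran from 43.9 on chromosome 9 to 119.0 on chromosome 3 with a median of 81.6. Over the first 6.2 Mb, chromosome 10 at 45.3 was above chromosome 9 at 45.0 and below the other 9, which reached 107.3 on chromosome 3. The first 6.2 Mb of chromosome 9 were therefore as sparse as the short arm of chromosome 10. The lengths from the other chromosomes were taken without leaving out any centromere, while the short arms stop short of theirs. A sparse stretch on another chromosome may thus include sequence around its centromere, which the file does not mark. In bins of 1 Mb counted from the chromosome start, all 13 whole bins of the short arms lay below 81, the median of the 366 bins of the 12 chromosomes. They held 11 to 56 regions, and 90 of the 353 other bins (25.5%) also held 56 or fewer.

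**Figure D2:**
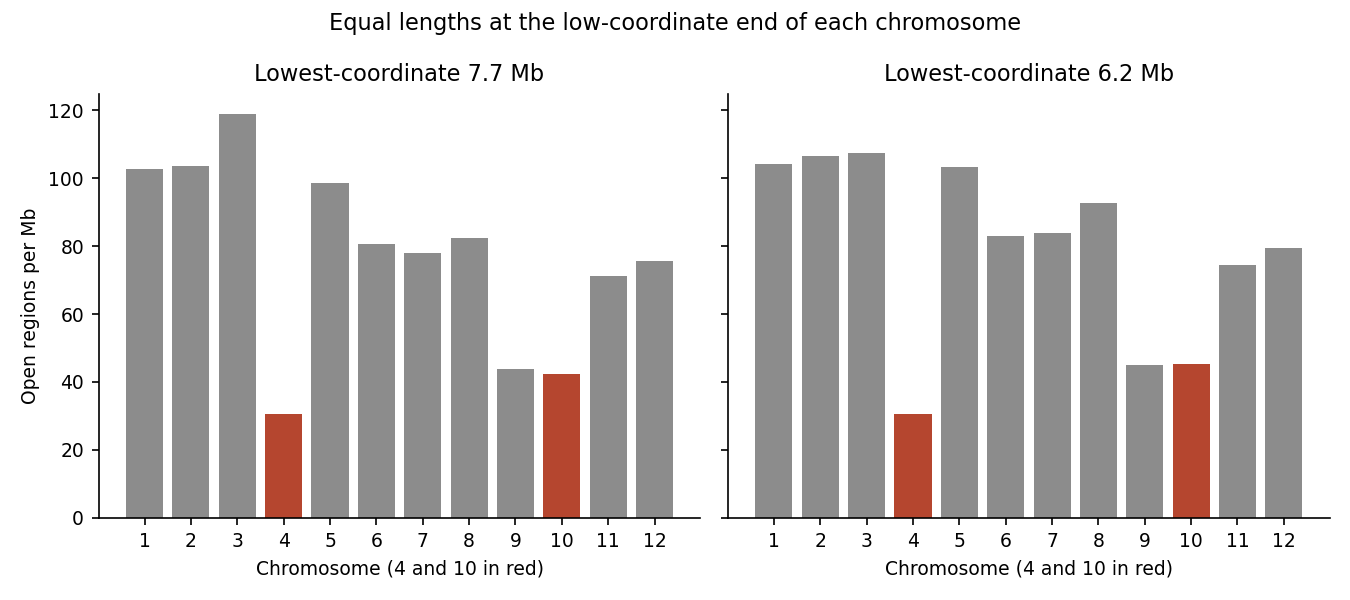
Open regions per Mb (bars) over the first 7.7 Mb (left) and the first 6.2 Mb (right) of each of the 12 chromosomes, with chromosomes 4 and 10 in red. Chromosome 4 stands at 30.5 in the left panel and chromosome 10 at 45.3 in the right one, where chromosome 9 stands at 45.0.

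Long empty stretches took up most of the short arm of chromosome 4. Gaps of at least 64 kb between neighbouring regions numbered 34 of 234 there (14.5%, interval 10.3 to 19.7) and summed to 5.09 Mb, or 66.2% of the arm. On its long arm 43 of 2002 gaps were that long (2.15%) and took up 21.5%, and in the matched stretch 49.8%. On the short arm of chromosome 10, 23 of 280 gaps were that long (8.21%, interval 5.28 to 12.1) and took up 38.7% of the arm, against 23.1% of the long arm and 32.1% of the matched stretch. Among the first 7.7 Mb of the 10 chromosomes other than 4 and 10, this share ran from 7.22% on chromosome 3 to 45.4% on chromosome 9, so chromosome 4 was above all 10.

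The longest of these stretches can be placed. On chromosome 4 they were 544.5 kb at chr4:1230179-1774698, 381.3 kb at chr4:2869656-3250978 and 357.8 kb at chr4:2511641-2869471. The last and the one before it adjoin, separated by a single open region. On chromosome 10 the longest were shorter, with 236.4 kb at chr10:4022623-4258978, 188.4 kb at chr10:3172077-3360443 and 175.4 kb at chr10:1230267-1405670. The longest gap of the long arm of chromosome 10, 388.0 kb, exceeded all of the short arm. The sources used here do not say how reads that align to several places were handled, so empty sequence and sequence without placeable reads cannot be told apart.

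In windows of 100 kb the arms differed from each other. On the short arm of chromosome 4, 21 of 77 windows held no region (27.3%) and the median window held 2. The long arm of that chromosome had 13 empty windows of 238 (5.46%) and a median of 7, and its matched stretch 12 of 77 (15.6%) and a median of 4. On the short arm of chromosome 10 only 4 of 62 windows were empty (6.45%), near the 3 of 62 in its matched stretch (4.84%), but the median was 4 against 6. The short arm of chromosome 4 thus combined few regions with bare windows, while that of chromosome 10 had few regions but rarely a bare window. Windows with 10 or more regions still occurred on the short arm of chromosome 10, 9 of 62 (14.5%), against 17 of 62 in its matched stretch (27.4%). The fullest 8 windows of the short arm of chromosome 4 held 35.3% of its regions, and the fullest 8 of its matched stretch 30.9%. On chromosome 10 the fullest 7 windows held 28.5% on the short arm and 34.6% in the matched stretch.

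Where open regions occurred, they lay close together about as often as elsewhere. Gaps under 1000 bp made up 23.9% of the gaps on the short arm of chromosome 4 (56 of 234, interval 18.6 to 29.9) and 25.7% on its long arm, although there were fewer regions per Mb. Chromosome 10 had shares of 25.7% (72 of 280, interval 20.7 to 31.3) and 28.1%. The long-arm shares lie inside the short-arm intervals, and over chromosomes 1 to 12 the share was 27.6%. In the matched stretch of chromosome 4 the share was lower, 17.3%, and below the interval of the short arm. The quartile of the shortest gaps was accordingly similar, ending at 1046 and 961 bp on the short arms of chromosomes 4 and 10 and at 911 and 822 bp on the long arms.

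The longer gaps carried the difference. The median gap was 7745 bp on the short arm of chromosome 4 and 8472 bp on that of chromosome 10, against 4543 and 3896 bp on the long arms. In the matched stretches it was 7838 and 4308 bp, so on chromosome 4 the short arm did not exceed the matched stretch. The upper quartile began at 32.7 kb and 30.2 kb on the short arms and at 13.3 kb and 12.5 kb on the long arms. Gaps of 1 to 10 kb made up 31.2% and 26.8% on the short arms and 42.0% and 42.4% on the long arms. Over the first 7.7 Mb the 7745 bp of chromosome 4 was above 9 of the 10 chromosomes other than 4 and 10 and below chromosome 9, at 7791 bp. The 8472 bp of chromosome 10 was above the median gap over the first 6.2 Mb of all 10 chromosomes other than 4 and 10, the highest of which was 7725 bp on chromosome 9.

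**Figure D3:**
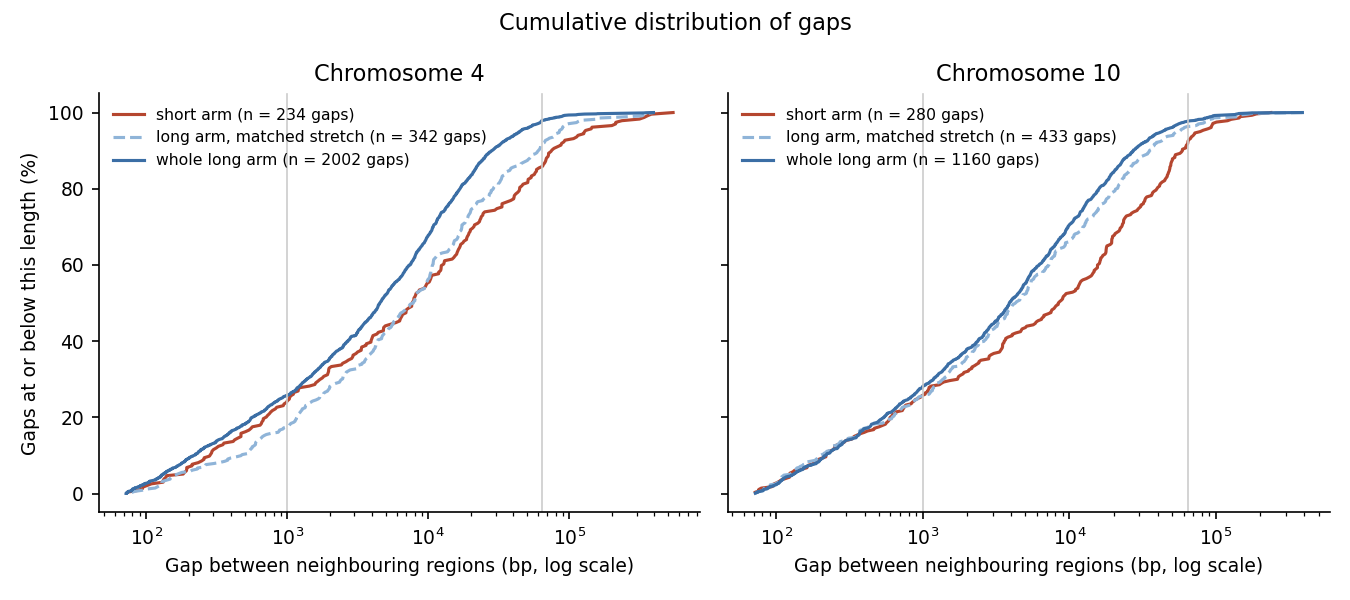
Cumulative share of gaps (percent) against the length of the gap between neighbouring open regions (bp, log scale), with vertical lines at 1000 bp and 64 kb, for the short arm (red), the matched stretch of the long arm (dashed) and the whole long arm (blue). Short and long arms meet near 1000 bp, at 23.9% and 25.7% on chromosome 4 and at 25.7% and 28.1% on chromosome 10, and part above it.

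Dense groups were few, and about as frequent per region on the short arms as on the whole long arms, with fewer per Mb. Regions less than 1000 bp apart were joined into groups, and 142 of 235 regions on the short arm of chromosome 4 (60.4%) and 166 of 281 on that of chromosome 10 (59.1%) stood outside any group. On the long arms these shares were 58.7% and 53.8%, and in the matched stretches 70.0% and 58.3%. Each short arm had 2 groups of at least 5 regions, which is 0.26 per Mb on chromosome 4 and 0.32 on chromosome 10, against 0.71 and 0.62 on the long arms and 0.13 and 0.81 in the matched stretches. Per 100 regions there were 0.85 groups on both arms of chromosome 4, and 0.71 and 0.69 on the short and the long arm of chromosome 10. The matched stretches had 0.29 and 1.15 per 100 regions, from only 1 and 5 groups. These lie on opposite sides of the short-arm values, and the groups are too few to tell whether the likeness holds at matched distance. On the short arm of chromosome 4 the groups were 5 regions within 3297 bp at chr4:330515-333811 and 5 within 2350 bp at chr4:2480277-2482626. On the short arm of chromosome 10 they were 6 regions within 2855 bp at chr10:910813-913667 and 7 within 2701 bp at chr10:3799548-3802248. None of the 4 groups held a region at 18, the highest peak value of the file. Among all short-arm regions with a neighbour under 1000 bp away, 17.2% on chromosome 4 and 21.7% on chromosome 10 had the value 18. Peak values in long-arm groups of at least 5 regions were not analysed. Whether the lack of 18 is particular to short-arm groups was therefore not tested. Members of the 4 groups were 72 to 379 bp wide. The group at 2480277 on chromosome 4 lies in the second-emptiest bin of that arm.

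Open regions of the short arm of chromosome 4 were narrower than those of the long arm. The median width was 183 bp (interval 161 to 206) with quartiles of 113 and 273 bp, against 214 bp with quartiles of 113 and 340 bp on the long arm. The mean was 219.1 against 269.5 bp. The lower quartiles were equal, so the difference lay among the wider regions. Against the matched stretch, at 201 bp, the median lay inside the interval. The medians of chromosome 10 were 190 bp (interval 165 to 215) on the short arm and 195 bp on the long arm, which the interval includes. The matched stretch at 175.5 bp lay on the other side, also inside the interval. Without the 100 kb at chr10:10800001-10900000, a choice made after the values were seen, its median was 186 bp. Over the low-coordinate ends both medians were below those of all 10 chromosomes other than 4 and 10, the lowest of which were 187 and 193.5 bp on chromosome 12, inside the intervals.

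Wide regions were few on the short arm of chromosome 4. There 0 of 235 regions were wider than 1000 bp, which allows a share of up to 1.28% when 3 counts are taken as the limit. The exact interval reaches 1.56% and so includes the share of the long arm, 31 of 2003 (1.55%). The matched stretch had 3 of 343 (0.875%). Regions over 500 bp made up 5.11% (12 of 235, interval 2.67 to 8.75) against 10.8% of the long arm and 8.16% of the matched stretch. On chromosome 10, 2 of 281 regions (0.712%) were wider than 1000 bp against 8 of 1161 (0.689%). Regions over 500 bp made up 7.83% there (22 of 281, interval 4.97 to 11.6) and 9.73% of the long arm.

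The 5 widest regions of each short arm all had a peak value of 18. This is not particular to the short arms. Of the regions wider than 1000 bp, 30 of 31 on the long arm of chromosome 4 and 8 of 8 on that of chromosome 10 had it too. On chromosome 4 the widest was 860 bp, at chr4:4969353-4970212. It was followed by 820 bp at chr4:5666150-5666969 and 749 bp at chr4:4964863-4965611. The first and the third lie less than 10 kb apart in the fullest bin of the arm, which also holds the second. The other 2 were 708 bp at chr4:1151901-1152608 and 616 bp at chr4:4523007-4523622.

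The widest on chromosome 10 was 1093 bp, at chr10:5569874-5570966, followed by 1014 bp at chr10:1207139-1208152 and 759 bp at chr10:1202792-1203550. The second and the third again lie less than 10 kb apart. The next were 729 bp at chr10:3841290-3842018 and 726 bp at chr10:385381-386106. The genes at these places were not analysed here. The sequence of these regions was not analysed here either.

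The shares of short-arm and long-arm regions at either end of the peak values differed by less than counting error. Each region carries an integer, called max in the list and left undefined there, which is its peak value. Its highest value equals the number of libraries, 18, and whether it counts libraries or scores signal is not stated, so it is not read as strength. On the short and long arms of these 2 chromosomes it ran from 11 to 18. Its mean was 15.1 ± 2.12 (SD over 235 regions) on the short arm of chromosome 4 and 15.2 ± 2.01 on the long arm. On chromosome 10 it was 15.3 ± 2.09 (SD over 281 regions) and 15.4 ± 2.06.

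The ends of the scale were filled to similar shares. The highest value, 18, was reached by 20.4% of short-arm regions on chromosome 4 (48 of 235, interval 15.5 to 26.2) against 18.8% on the long arm, and by 24.6% on chromosome 10 (69 of 281, interval 19.6 to 30.0) against 23.0%. Values of 12 or less made up 11.9% (28 of 235, interval 8.07 to 16.8) against 9.79%, and 9.61% (27 of 281, interval 6.43 to 13.7) against 9.56%. All 4 long-arm shares lie inside the short-arm intervals. The difference at 18 on chromosome 4, 1.60 percentage points, depended on the regions compared. It was 9.47 points among regions of at least 200 bp and -0.86 points against the matched stretch. The first value lies outside the interval of -3.36 to 7.33. That interval was made from all 235 short-arm regions, with the long-arm share held fixed. None was made for the regions of at least 200 bp, so whether 9.47 points exceeds their counting error was not tested.

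Width at a given peak value differed at the top of the scale. Among regions at 18 the median width on the short arm of chromosome 4 was 375.5 bp (interval 305 to 422, 48 regions), below the 475 bp of the long arm (interval 443 to 500, 377 regions). At 17 the medians were 247 and 325 bp and at 15 they were 176 and 209 bp, while at 13 the short arm was wider, at 109.5 against 91 bp. The matched stretch had 369 bp at 18, inside the interval of the short arm. On chromosome 10 the medians at 18 were 371 bp (interval 336 to 424, 69 regions) on the short arm, 415 bp on the long arm and 362.5 bp in the matched stretch, all within that interval. Compared class by class with the matched stretch, the short arm was narrower in 3 of 8 peak values and wider in 5 on each chromosome.

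**Figure D4:**
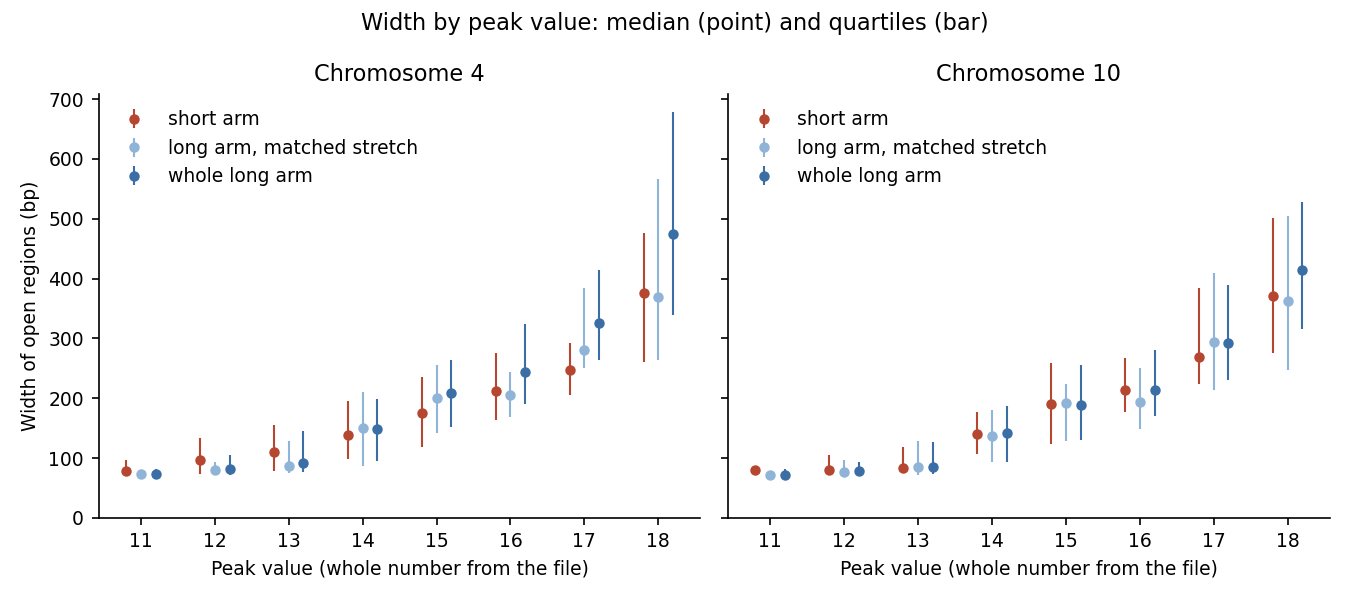
Median width of open regions (points, bp) with quartiles (bars) at each peak value from 11 to 18, for the short arm (red), the matched stretch of the long arm (light blue) and the whole long arm (dark blue). At a peak value of 18 on chromosome 4 the red and light blue points lie at 375.5 and 369 bp and the dark blue one at 475 bp.

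Other traits of the regions differed little between the short and the whole long arms. The shortest width in the list, 72 bp, was held by 14 of 235 short-arm regions of chromosome 4 (5.96%) and 6.29% of the long arm. On chromosome 10 it was held by 19 of 281 (6.76%, interval 4.12 to 10.4) and 9.82%, and by 13.4% of the matched stretch, above the interval. The peak position lay on the lower-coordinate side of the region in 74.0% and 74.4% of short-arm regions and in 72.8% and 74.2% of long-arm regions.

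More of the short-arm regions stood alone than on the whole long arms. No other open region lay within 10 kb for 57 of 235 regions on chromosome 4 (24.3%) and 77 of 281 on chromosome 10 (27.4%), against 12.9% and 11.5% of the long arms. The matched stretches had 23.3% and 14.7%, so on chromosome 4 the contrast was small at matched distance. On the short arms the share at the peak value 18 was not lower among the lone regions. On chromosome 4, 14 of 57 had the value 18 (24.6%, interval 14.1 to 37.8), against 16 of 93 regions with a neighbour under 1 kb (17.2%, interval 10.2 to 26.4). The shares of chromosome 10 were 23 of 77 (29.9%, interval 19.97 to 41.4) and 25 of 115 (21.7%, interval 14.6 to 30.4).

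The order was the opposite on the long arms, where 14.3% of lone regions on chromosome 4 (37 of 259, interval 10.3 to 19.1) and 15.8% on chromosome 10 (21 of 133, interval 10.05 to 23.1) had the value 18, against 20.4% and 24.8% of regions with a neighbour under 1 kb. The matched stretches had the long-arm order as well, with 15% against 28.2% and 18.8% against 29.8%. That of chromosome 10 includes the dense 100 kb at chr10:10800001-10900000, where 21 of 43 regions had the value 18. On both chromosomes the share of lone regions at 18 on the short arm lies above the interval of the long arm, and the intervals of the arms overlap. Among the low-coordinate ends of the other 10 chromosomes lone regions had the higher share in 4 of 10 over 7.7 Mb and in 2 of 10 over 6.2 Mb, so this order is not confined to the short arms of chromosomes 4 and 10. The split by distance was chosen after the values were seen and was not tested.

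**Figure D5:**
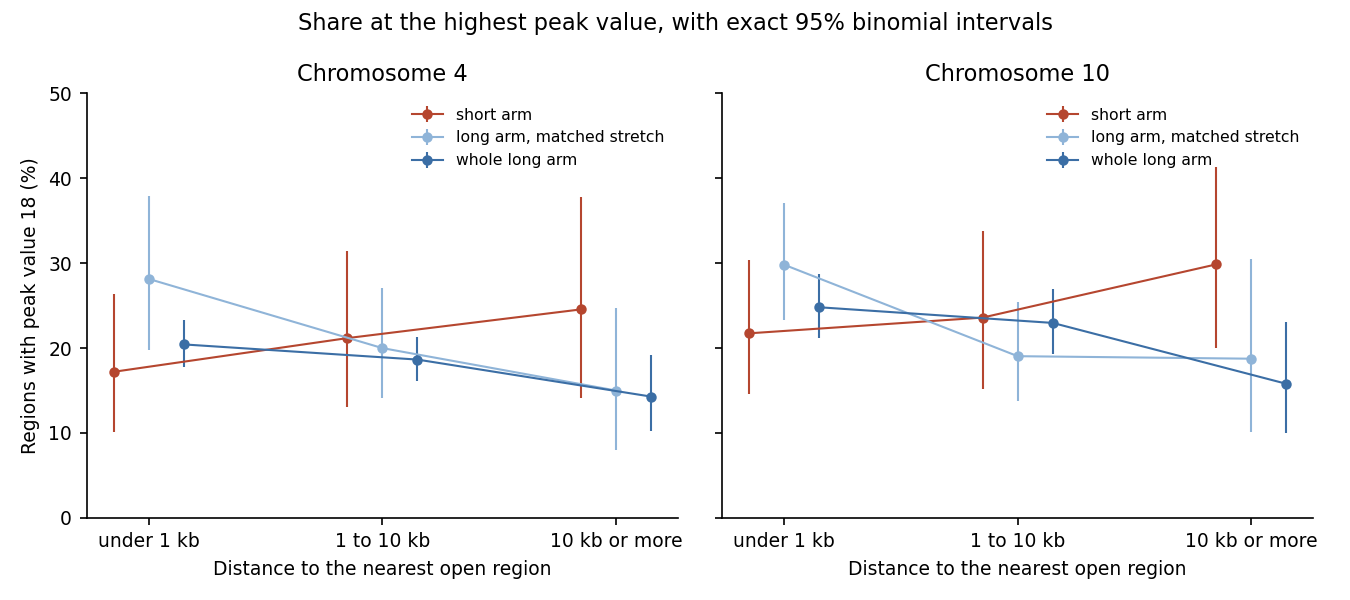
Share of open regions with the peak value 18 (points, percent) with exact 95% binomial intervals, by the distance to the nearest other open region, for the short arm (red), the matched stretch of the long arm (light blue) and the whole long arm (dark blue). The red points go from 17.2% to 24.6% on chromosome 4 and from 21.7% to 29.9% on chromosome 10, the dark blue ones from 20.4% to 14.3% and from 24.8% to 15.8%.

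The regions next to the arm edges varied in width and peak value. On chromosome 4 the last region counted to the short arm was 168 bp wide with a peak value of 13, 111.6 kb inside the edge, and the first left out was 136 bp wide with a value of 17, 40.2 kb beyond it. On chromosome 10 they were 312 bp wide with a value of 18, 23.8 kb inside, and 121 bp wide with a value of 14, 78.2 kb beyond. The first region counted to the long arm of chromosome 4 was 72 bp wide, the shortest width in the list, with a value of 14. The last left out before it was 99 bp wide with a value of 16. At the long-arm edge of chromosome 10 they were 83 bp wide with a value of 13 and 279 bp wide with a value of 17.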

How the data were processed

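ATAC-seq of 18 rice leaf libraries was analysed from 1 pooled list of open regions. Bowtie2 2.2.3 made the alignments, per the submitters' processing notes. The sources used here do not give the genome build, the caller of the regions, any filter on reads or the way libraries were pooled. The deposited list gives start and end in bp and a peak value, a whole number from 10 to 18 that the authors left undefined (a score, or a number of the 18 libraries), all used as deposited. No column of per-sample values existed to be left unused (0 columns). The gene table at hand belongs to assembly ASM3414082v1, whose match to the file is not established, so genes, sequences and the rule naming genes were not used.

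Members, comparisons and alternatives were chosen with earlier results of these data known. Arms follow the midpoint rule. Chromosomes were taken to end with their last region. Gaps count the bases between neighbours of the same arm. Intervals are exact Clopper-Pearson (95%), for medians from binomial order statistics, and for density ratios from the short-arm share of the regions of both arms, scaled by their lengths. For differences of shares or medians the long-arm value was subtracted from the short-arm interval as a fixed number. Regions were named by a rule: the 5 widest, groups of at least 5, the 3 longest gaps, the fullest and emptiest bins, and the edges. Python 3.11.15, NumPy 2.4.6, pandas 2.3.3, SciPy 1.17.1 and matplotlib 3.10.9 were used. The counting was checked on simulated lists.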

Additional observations from a re-analysis of the deposited data

How the results depend on the processing

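No paired analysis was possible because the list carries no value per library, so leaving out libraries or blocking by replicate number, as planned, was not run. On both chromosomes the short arm had fewer regions per Mb than the long arm under all alternatives run, namely merging regions under 150 bp apart, at least 100 bp, peak value 16 or more, edges moved 1 Mb either way, the matched stretch, the outermost 1 Mb left out, and base pairs in place of regions. The ratio lay between 0.29 and 0.69 on chromosome 4 and between 0.48 and 0.71 on chromosome 10. It left its interval against the matched stretch (0.69 and 0.65), in base pairs on chromosome 4 (0.29), and on chromosome 10 without the fullest 100 kb of that stretch (0.71, added after seeing the data). The median width on chromosome 4 was lower by 18 to 66 bp (a difference of -66 bp at peak value 16 or more), and on chromosome 10 the difference ran from -24 to 14.5 bp and changed direction. For the share at 18 on chromosome 4 the difference of 1.60 percentage points became 9.47 among regions of at least 200 bp and -0.86 against the matched stretch. For gaps under 1000 bp on chromosome 4 the difference of -1.79 points became 6.68 against the matched stretch. The cause was not tested for any of these. The unknown depth limits all counts: a region missing from the list may be closed or too thinly read.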

Other observations

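The 4 Mb left out around each centromere held 30.3 open regions per Mb on chromosome 4 and 27.5 on chromosome 10, with median widths of 169 and 162 bp. The short arm of chromosome 4, at 30.5 per Mb, was as sparse as the excluded stretch, while that of chromosome 10, at 45.3 per Mb, was 1.65 times as dense. Gaps of at least 64 kb took up 69.2% of the excluded stretch on chromosome 4 and 70.2% on chromosome 10. In the stretch at chr10:10800001-10900000 of the long arm, 43 open regions had a median width of 104 bp, and 21 of them (48.8%) had the peak value 18, against 23.0% of the long arm as a whole.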
